A study of Mus musculus with 10 samples.

Results

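The genes described here encode voltage-gated and potassium channel subunits, and were measured by bulk RNA sequencing in whole retinas of 10 mice. Members were chosen by symbol (the Kcn, Cacna, Cacnb, Cacng, Cacna2d, Scn and Hcn families), with protein-coding genes only and 3 retinal channel genes set aside. Of 134 such genes, 109 had a mean level of at least 0.5 CPM and are the members, out of 57010 rows in the whole table. CPM is the usual depth-scaled count, relative to the library total after adjustment by the trimmed mean of M values (TMM). The other 25 genes lay below that level, among them the pigment epithelium channel gene Kcnj13, with group means of 0.327 and 0.543 CPM in the 2 groups described next.

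All mice were 6 to 8 weeks old and received a vector carrying green fluorescent protein (GFP) by injection into the vitreous, and their retinas were taken 14 days later. In 1 group of 5 mice the adeno-associated virus (AAV) vector was AAV2-GFP, and in the other group of 5 it was AAV206-GFP. AAV2 is a serotype widely used to reach the inner retina, and the study's title presents its vector as directed at the retinal pigment epithelium. No uninjected retina was analysed here, so each difference lies between the 2 vectors. The labels give neither the promoter that drives GFP nor the sex or strain of the mice.

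Voltage-gated channels open when the membrane potential changes. Sodium channels carry the spikes of ganglion and amacrine cells, calcium channels trigger transmitter release, and potassium channels bring the membrane back and set its resting level. In photoreceptors, which respond with graded potentials, potassium channels that contain Kcnv2 subunits shape the light response in the inner segment. Most channels join a pore-forming subunit with auxiliary subunits that control its trafficking and gating.

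Few channel genes differed between the vectors, and in the main analysis the share was close to that of all genes. With edgeR's quasi-likelihood test, 10 of the 104 members tested had an adjusted p-value under 0.05 (9.62%), against a background of 11.2% of the 15539 genes tested. Among the 7 higher with AAV206-GFP were Scn4a, Scn2a, Cacna2d2, Cacna1d, Kcnt1 and Kcnf1, where 5.95% of all tested genes passed as higher. The 3 lower with AAV206-GFP were Kcnab2, Cacng4 and Cacnb3, where 5.30% of all tested genes passed as lower. The median log2 fold change of the 104 members was -0.04, against -0.0095 over all tested genes, and the median of its absolute value was 0.14 against 0.16. Only Scn4a and Kcnab2 passed in all 21 alternative analyses. The count of 10 was 5 without AAV206-GFP replicate 1. It was 4 without AAV2-GFP replicate 3, 4 or 5, or without AAV206-GFP replicate 2 or 4. Without AAV2-GFP replicates 1 and 4 together it was 2. In these fits 104 members were tested each time, and the share over all tested genes was 6.18% to 8.81%.

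The promoter windows of the 3 genes with the smallest p-values among those whose groups did not overlap are shown first, because these are the members on which the comparison rests most firmly. Each window holds 300 bases, 250 before and 50 after a start site, from RefSeq on GRCm38.p6, printed 5′ to 3′ on the strand of the gene. Capitals mark matches on either strand to TATAAA, the TATA box core, to GGGCGG, the GC box core, or to TAATCC, the core bound by photoreceptor homeodomain factors. No 2 matches in these windows share bases. Of the start sites listed for Kcnab2 and Scn2a, 3 and 2 in number, the window with the most matches is shown.
Scn4a, chr11:106349341-106349640, minus strand: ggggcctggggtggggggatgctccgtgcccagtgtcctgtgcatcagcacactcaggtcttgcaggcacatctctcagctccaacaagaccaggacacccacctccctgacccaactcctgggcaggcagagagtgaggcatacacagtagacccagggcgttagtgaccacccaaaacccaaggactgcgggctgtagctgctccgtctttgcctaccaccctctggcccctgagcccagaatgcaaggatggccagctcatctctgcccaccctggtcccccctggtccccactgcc
Scn2a, chr2:65668436-65668735, plus strand: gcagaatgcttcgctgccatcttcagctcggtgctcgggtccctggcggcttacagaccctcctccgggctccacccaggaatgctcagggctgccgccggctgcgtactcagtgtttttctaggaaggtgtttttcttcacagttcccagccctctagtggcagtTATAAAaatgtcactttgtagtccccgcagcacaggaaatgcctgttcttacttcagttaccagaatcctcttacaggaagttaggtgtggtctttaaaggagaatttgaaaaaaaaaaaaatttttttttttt
Kcnab2, chr4:152477500-152477799, minus strand: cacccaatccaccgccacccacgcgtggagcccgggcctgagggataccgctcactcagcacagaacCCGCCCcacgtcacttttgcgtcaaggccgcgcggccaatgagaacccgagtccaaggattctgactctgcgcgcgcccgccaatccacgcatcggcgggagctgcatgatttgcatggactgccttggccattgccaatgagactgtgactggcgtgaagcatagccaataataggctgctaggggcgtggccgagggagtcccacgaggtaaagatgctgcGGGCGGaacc

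The Scn4a window held none of the 3 letter patterns, the Scn2a window held 1 TATAAA match that begins 84 bases before the start site, and the Kcnab2 window held 2 GGGCGG matches. Their GC contents were 63.0%, 47.7% and 62.7% in that order. Promoter windows were matched by symbol for 77 of the 109 members, with 109 windows in all. GGGCGG was present in 48.6% of these windows and in 35.7% of the 32851 windows of all genes. TATAAA was present in 3.67% against 13.6%, and TAATCC in 5.50% against 7.06%. These shares are descriptions of the letters in the windows.

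Levels between genes were compared per length, as CPM per kilobase of exon. Kcnj14, an inward rectifier subunit, stood highest, at 301 CPM per kilobase with AAV2-GFP and 281 with AAV206-GFP. Among the other members described here, the photoreceptor subunit gene Kcnv2 was at 166 and 160, Kcnab2 at 69.4 and 53.0, and Cacng7 at 45.6 and 48.9. The median member was at 3.94 CPM per kilobase over all mice.

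Over the 5 mice of a group, the per-length ranges of Kcnj14 and Kcnv2 did not overlap in either group, as the plot of levels per length shows. Kcnj14 carried fractional counts in all 10 libraries, so reads shared with another gene leave its level uncertain. Of the 109 members, 22 carried fractional counts in at least 1 library.

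**Figure D1:**
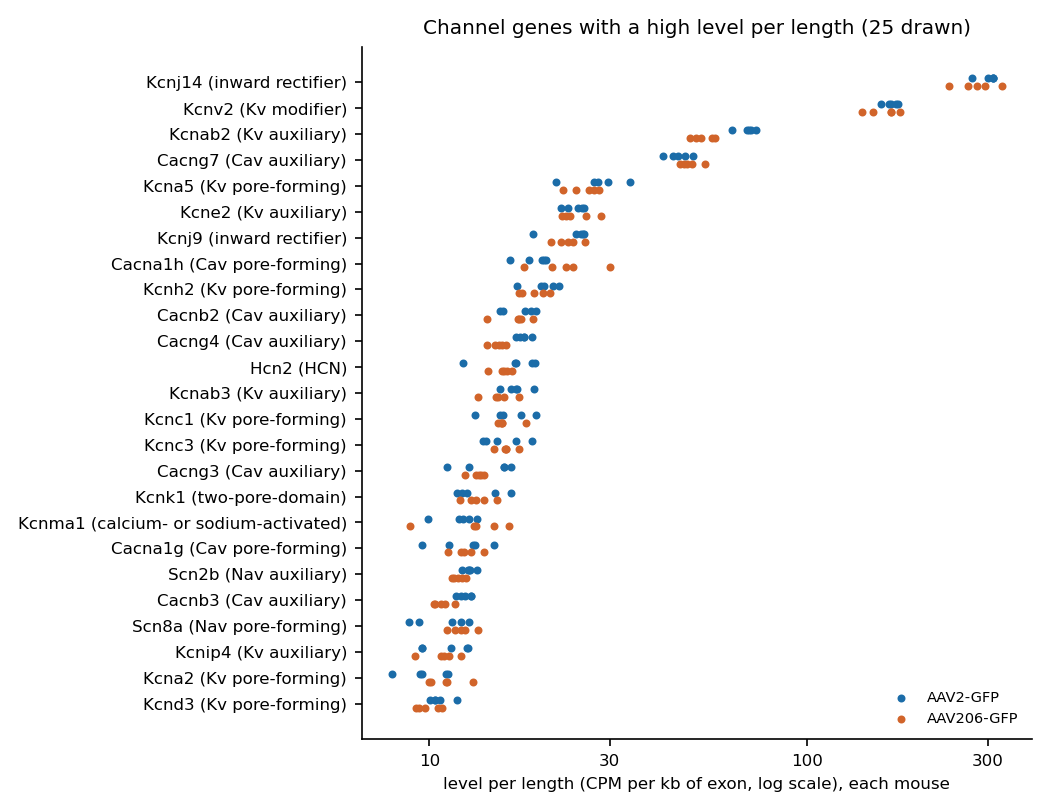
Levels of 25 channel genes with a high mean level per length, as CPM per kilobase of exon on a log axis, with 1 point per mouse and each gene's role in brackets. Kcnj14 and Kcnv2 stand apart from the other genes drawn, and of the 4 highest drawn Kcnab2 is the one whose 2 groups do not overlap.

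Sodium channel pore genes gave the largest change among the members. Scn4a encodes Nav1.4, known as the sodium channel of skeletal muscle. Its level was 22.9, 24.6, 14.97, 23.5 and 24.3 CPM in AAV2-GFP replicates 1 to 5, and 49.6, 51.5, 47.9, 41.0 and 50.7 CPM in AAV206-GFP replicates 1 to 5. Every AAV206-GFP mouse stood above every AAV2-GFP mouse, and the gap between the groups was wider than the range of either. The means were 22.1 ± 4.02 and 48.1 ± 4.21 CPM (SD, n = 5). On the log2 scale the difference was 1.13 ± 0.12 (SE, edgeR adjusted p = 2.54e-05). Its log2 fold change lay between 1.01 and 1.18 over the 21 alternatives.

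Markers of muscle, a tissue that lies next to the eye, were low but not all at 0. Of 12 skeletal muscle genes, listed after the result was seen, Myh2, Myh4 and Myog had no count in any library. Ryr1, the muscle calcium release channel gene, was 3.52 to 5.54 CPM in the AAV2-GFP group and 2.495 to 6.88 CPM in the AAV206-GFP group, and no other gene of the list exceeded 2.35 CPM in any mouse. The summed level of the 12 was 6.79 to 10.4 CPM in AAV2-GFP mice and 5.16 to 9.74 CPM in AAV206-GFP mice, and none of the 3 tested (Acta1, Mylpf and Ryr1) passed. The part of muscle RNA in the Scn4a result was not tested.

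Scn2a encodes Nav1.2, an axonal sodium channel of ganglion cells. It stood at 57.2, 66.0, 48.9, 54.2 and 62.1 CPM in AAV2-GFP replicates 1 to 5, and at 70.1, 73.5, 78.9, 77.6 and 70.8 CPM in AAV206-GFP replicates 1 to 5. The groups did not overlap, and AAV2-GFP replicate 3 was the lowest mouse, as it was for Scn4a. The means were 57.7 ± 6.65 and 74.2 ± 3.96 CPM (SD, n = 5). On the log2 scale the difference was 0.36 ± 0.08 (SE, edgeR adjusted p = 0.00733). Without AAV2-GFP replicates 1 and 4 together the adjusted p was 0.0601.

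The other 6 pore genes of this class did not pass. Scn3a had a log2 fold change of 0.26 (edgeR adjusted p = 0.122). Scn1a and Scn8a, the main sodium channels of inner retinal neurons beside Scn2a, had 0.17 and 0.16 (edgeR adjusted p = 0.264 and 0.279). Scn1a was 79.9 to 107 CPM in AAV2-GFP mice and 85.9 to 124 CPM in AAV206-GFP mice, and Scn8a was 139 to 200 and 176 to 211 CPM, so the groups overlapped in both.

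The 4 auxiliary beta subunits of sodium channels, which modulate gating and adhesion, did not pass. All 4 had negative log2 fold changes, between -0.31 for Scn4b and -0.09 for Scn2b, with a class median of -0.21. In Scn3b, taken up after its values were seen, the groups did not overlap, at 25.7 to 28.8 and 20.2 to 25.4 CPM (log2 fold change -0.22, edgeR adjusted p = 0.105). The pore genes of the same channels had a class median of 0.22, the highest of the 11 role classes, where 2 of 8 passed.

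**Figure D2:**
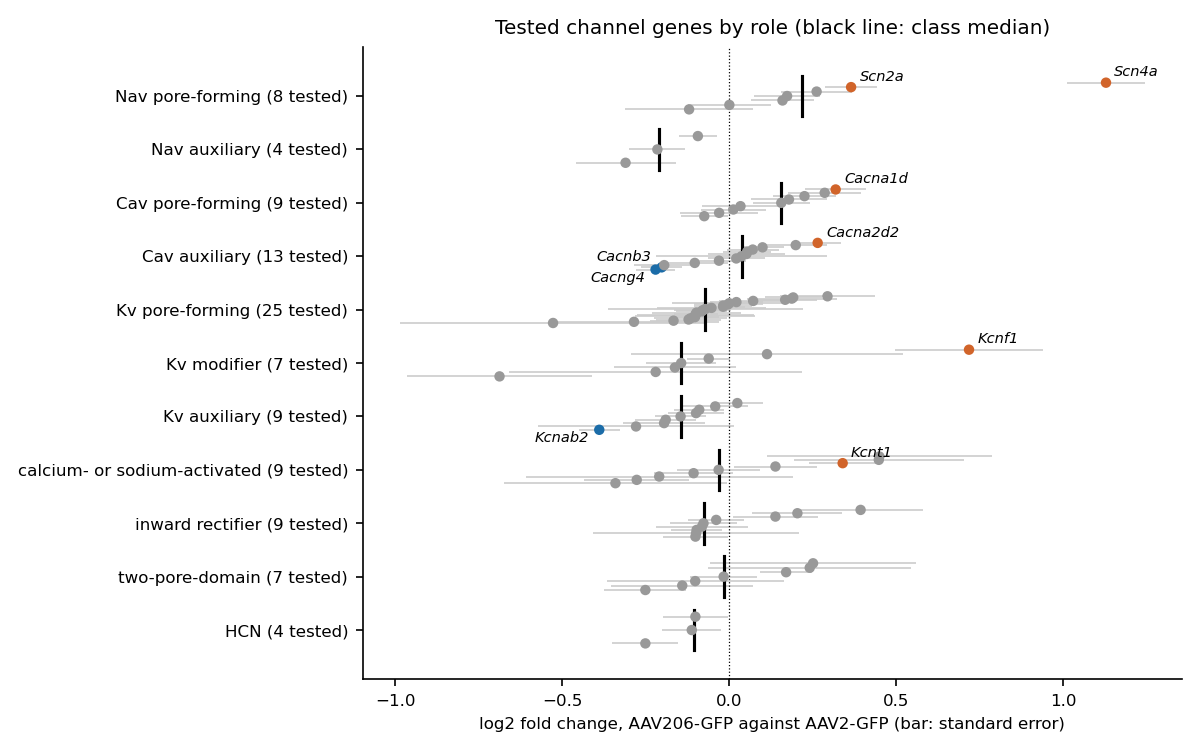
Log2 fold changes of 100 of the 104 tested channel genes (AAV206-GFP against AAV2-GFP, horizontal axis) with standard errors, grouped by role, with the median of all tested genes of the class as a black line. Orange points passed as higher, blue as lower and grey did not pass. Pore-forming sodium and calcium channel genes have medians of 0.22 and 0.16, and the sodium and potassium channel auxiliary genes have medians of -0.21 and -0.15. These medians are not adjusted for transcript length.

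Among calcium channel pore genes, 1 of 9 passed (11.1%), against 11.2% of all tested genes. Of the 9, 7 had positive log2 fold changes, with a class median of 0.16. Cacna1d encodes Cav1.3, an L-type channel of photoreceptors and inner retinal neurons. It was 59.7, 67.9, 54.4, 60.3 and 66.0 CPM in AAV2-GFP replicates 1 to 5, and 74.8, 77.4, 80.2, 90.9 and 61.1 CPM in AAV206-GFP replicates 1 to 5. AAV206-GFP replicate 5 lay inside the AAV2-GFP range and the other AAV206-GFP mice lay above it.

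The Cacna1d means were 61.7 ± 5.41 and 76.9 ± 10.7 CPM (SD, n = 5). On the log2 scale the difference was 0.32 ± 0.09 (SE, edgeR adjusted p = 0.0368). Leaving out any single library other than AAV2-GFP replicate 2 or AAV206-GFP replicate 5 raised its adjusted p to between 0.0522 and 0.0980. Cacna1d carried fractional counts in 9 libraries, and 589 of its 12621 exonic bases (4.67%) overlap Chdh on the opposite strand, so its level is uncertain. Cacna1h, the T-type channel gene with the highest level per length of this class, was 160 to 198 CPM in AAV2-GFP mice and 174 to 294 CPM in AAV206-GFP mice. Its log2 fold change was 0.29 (edgeR adjusted p = 0.0993, and 0.0278 without AAV206-GFP replicate 5).

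The class named auxiliary calcium channel genes was set by symbol (Cacna2d, Cacnb and Cacng), so it counts Cacng4, taken up below. This class had 3 of 13 members past the threshold (23.1%), in both directions, against 11.2% of all tested genes. Cacna2d2 encodes an alpha2delta subunit, which carries calcium channels to the membrane. It was 72.2, 79.4, 67.3, 76.9 and 71.7 CPM in AAV2-GFP replicates 1 to 5, and 90.2, 86.5, 77.4, 94.9 and 92.3 CPM in AAV206-GFP replicates 1 to 5. AAV206-GFP replicate 3 fell within the AAV2-GFP range. On the log2 scale it changed by 0.26 ± 0.07 (SE, edgeR adjusted p = 0.0224), and the adjusted p was 0.0548 to 0.0604 without AAV2-GFP replicate 3 or 5 or AAV206-GFP replicate 4.

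Cacnb3 encodes a cytoplasmic beta subunit of calcium channels. It was 51.8, 48.8, 51.7, 49.8 and 47.2 CPM in AAV2-GFP replicates 1 to 5, and 44.0, 41.6, 46.8, 41.2 and 43.0 CPM in AAV206-GFP replicates 1 to 5. The groups did not overlap, though AAV2-GFP replicate 5 and AAV206-GFP replicate 3 lay close together. Its fold change on the log2 scale was -0.20 ± 0.06 (SE, edgeR adjusted p = 0.0469), and the gene passed in 1 of 10 analyses that left out a library, the one without AAV206-GFP replicate 3. In the other 9 its adjusted p was 0.0583 to 0.104. It was 0.0558 to 0.0831 with upper-quartile scaling, no filter on low counts, robust dispersions, or limma-voom with or without sample weights.

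Cacng4 is grouped with calcium channel subunits by name, but its protein is known as an AMPA receptor auxiliary subunit. It was 60.7, 63.8, 66.7, 63.7 and 62.1 CPM in AAV2-GFP replicates 1 to 5, and 57.2, 54.8, 55.8, 53.3 and 50.9 CPM in AAV206-GFP replicates 1 to 5. All AAV206-GFP mice lay below all AAV2-GFP mice. The log2 difference was -0.22 ± 0.06 (SE, edgeR adjusted p = 0.0246, and 0.0509 to 0.0647 without AAV2-GFP replicate 4 or AAV206-GFP replicate 2 or 4). Cacng7, a relative with a higher level per length, was 111 ± 7.74 and 119 ± 7.02 CPM (SD, n = 5; edgeR adjusted p = 0.328).

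None of the 25 pore-forming voltage-gated potassium channel genes passed in the main edgeR fit, against 11.2% of all tested genes. There 2 of the 25 (Kcnc2 and Kcnh7) had an unadjusted p under 0.05. Limma-voom and DESeq2 passed none either, but Kcnc2 passed in the edgeR fit adjusted for length, described below. The median log2 fold change of the 25 in the main fit was -0.07. Kcnc2, a Kv3 pore gene of fast-firing neurons, had a log2 fold change of -0.17 (edgeR adjusted p = 0.129). Kcnh7, of the Erg channel family, had 0.19 (edgeR adjusted p = 0.157), with fractional counts in 9 libraries.

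The modifier subunits carry no current alone and alter the channels they join. Kcnv2, restricted in the retina to photoreceptors, was 850, 876, 801, 838 and 886 CPM in AAV2-GFP replicates 1 to 5, and 714, 761, 852, 851 and 896 CPM in AAV206-GFP replicates 1 to 5. The groups overlapped, and the log2 difference was -0.06 ± 0.06 (SE, edgeR adjusted p = 0.567). Kcnf1, the gene of the Kv5.1 modifier, was the member of this class that passed.

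Kcnf1 was 2.35, 3.85, 3.78, 4.91 and 4.26 CPM in AAV2-GFP replicates 1 to 5, and 6.97, 5.28, 8.00, 4.21 and 7.11 CPM in AAV206-GFP replicates 1 to 5. AAV206-GFP replicate 4 lay below 2 of the AAV2-GFP mice. On the log2 scale it changed by 0.72 ± 0.22 (SE, edgeR adjusted p = 0.0471). Of 10 analyses that left out a library, Kcnf1 passed in the one without AAV206-GFP replicate 4, and its adjusted p was 0.0517 to 0.116 in the other 9. Scaling by library totals, no filter and limma-voom gave 0.0504 to 0.0572. In Kcng2, taken up after its values were seen, the groups did not overlap, at 1.53 to 2.55 CPM and 0.923 to 1.46 CPM, without passing (log2 fold change -0.69, edgeR adjusted p = 0.116).

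The clearest decrease was in an auxiliary potassium channel gene. Kcnab2 encodes the Kv beta 2 subunit, a cytoplasmic partner that helps carry Kv1 channels to the axon. It was 352, 387, 392, 409 and 396 CPM in AAV2-GFP replicates 1 to 5, and 318, 292, 283, 273 and 312 CPM in AAV206-GFP replicates 1 to 5. Every AAV206-GFP mouse stood below every AAV2-GFP mouse. The means were 387 ± 21.3 and 296 ± 19.1 CPM (SD, n = 5). On the log2 scale the difference was -0.39 ± 0.06 (SE, edgeR adjusted p = 0.000888). Its adjusted p reached at most 0.00877 over 21 alternatives.

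The other 8 auxiliary potassium channel genes did not pass. Of all 9 in the class, 8 had negative log2 fold changes, the exception being Kcne2 at 0.02, and the class median was -0.15. The related Kcnab1 and Kcnab3 had -0.09 and -0.15. The calcium-binding partners of Kv4 channels, Kcnip1, Kcnip2, Kcnip3 and Kcnip4, lay between -0.20 and -0.04. Of the Kv1 pore genes that Kv beta subunits join, none passed. Kcna1 and Kcna2 had log2 fold changes of 0.29 and 0.17, and Kcna3, Kcna4, Kcna5 and Kcna6 lay between -0.12 and -0.00053.

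**Figure D3:**
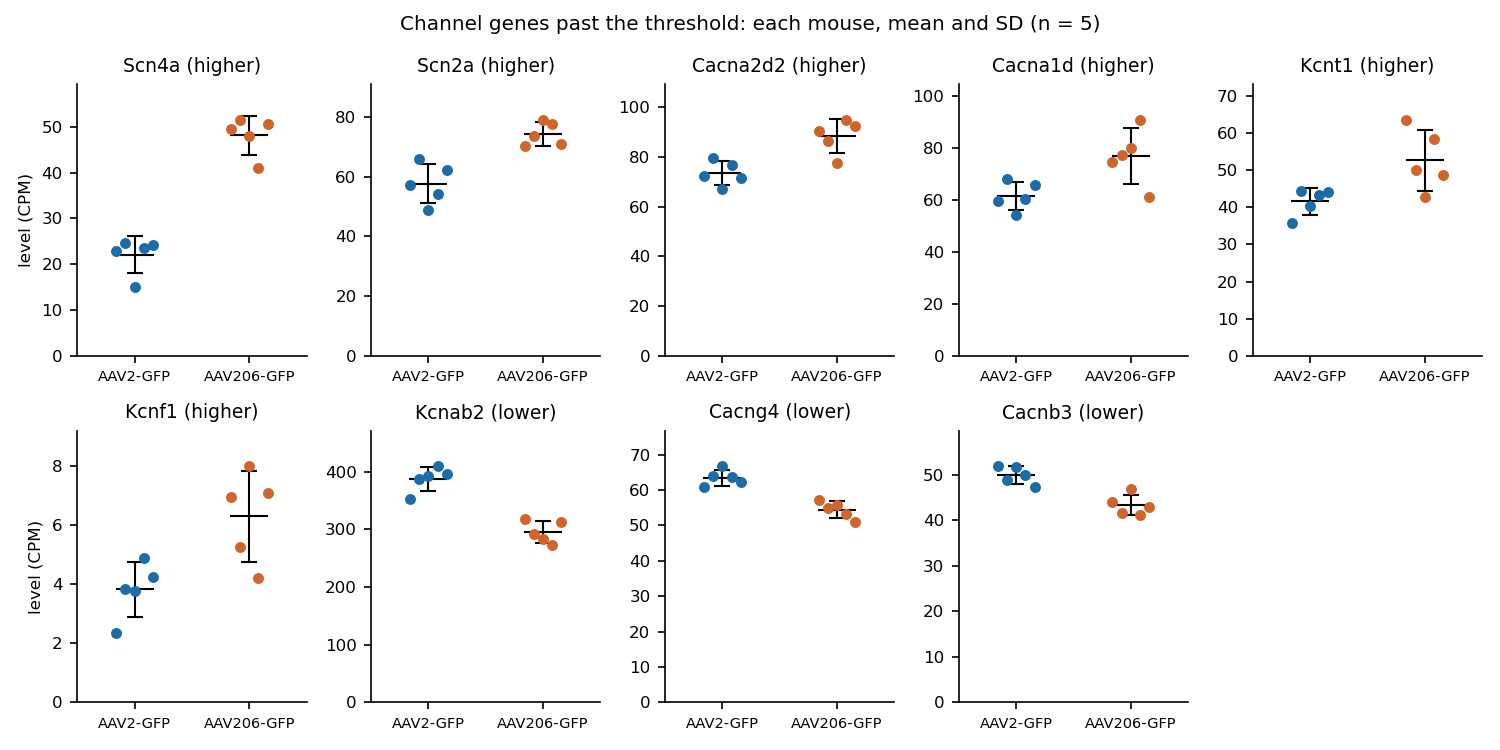
Levels in CPM of 9 of the 10 channel genes past the threshold in each mouse (points), with the group mean and SD (n = 5), from an axis that starts at 0. The groups do not overlap in Scn4a, Scn2a, Kcnab2, Cacng4 and Cacnb3, and relative to its level the gap is widest for Scn4a.

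In the class named calcium- or sodium-activated potassium channels, 1 of 9 genes passed (11.1%), against 11.2% of all tested genes. The class was set by symbol (Kcnma, Kcnmb, Kcnn, Kcnt and Kcnu) and includes the auxiliary Kcnmb genes. Kcnt1, the gene of the sodium-activated Slack channel, was 35.6, 44.3, 40.4, 43.4 and 44.2 CPM in AAV2-GFP replicates 1 to 5, and 63.5, 49.9, 42.8, 58.3 and 48.6 CPM in AAV206-GFP replicates 1 to 5. AAV206-GFP replicate 3 lay inside the AAV2-GFP range. The log2 difference was 0.34 ± 0.10 (SE, edgeR adjusted p = 0.0384). It was 0.0549 to 0.0981 when any 1 of AAV2-GFP replicates 1, 3, 4 and 5 or AAV206-GFP replicates 1, 2 and 4 was left out, and 0.0877 under limma-voom with sample weights. Kcnma1, the BK channel gene, was 168 to 228 CPM and 151 to 276 CPM, with a log2 fold change of 0.14 (edgeR adjusted p = 0.496).

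Inward rectifier channels hold the resting potential. None of the 9 inward rectifier members passed, against 11.2% of all tested genes, and none had an unadjusted p under 0.05 with edgeR. The 9 do not include channel genes that were set aside or lay below the level limit. Kcnj14 was 738, 841, 844, 841 and 819 CPM in AAV2-GFP replicates 1 to 5, and 724, 761, 799, 643 and 886 CPM in AAV206-GFP replicates 1 to 5. AAV2-GFP replicate 1 stood below the other mice of its group, and the groups overlapped (log2 fold change -0.10, edgeR adjusted p = 0.417).

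Of the two-pore-domain leak channel genes, 7 of 9 were tested and none passed in the main fit, against 11.2% of all tested genes. Of these 7, 1 (Kcnk9) had an unadjusted p under 0.05 with edgeR, and Kcnk3 passed without AAV2-GFP replicate 1. Kcnk1, with the highest level per length among them, was 30.4 ± 4.46 and 30.1 ± 2.55 CPM (SD, n = 5; edgeR adjusted p = 0.932). The 5 members too low to be tested were Kcnv1, Kcng1, Kcng3, Kcnk6 and Kcnk13, each at or under 1.36 CPM in all mice except Kcnk6, which was 3.52 CPM in AAV2-GFP replicate 1. At this depth 3 counts correspond to 0.231 to 0.273 CPM.

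Groups that did not overlap were found in 7 of the 104 tested members, 2 higher and 5 lower, against a background of 9.78% of all tested genes. These were Scn4a, Scn2a, Kcnab2, Cacng4, Cacnb3, Scn3b and Kcng2.

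Members of 8 kb or more had a higher median fold change than shorter members, with transcript length taken as the union of annotated exons. Of the 7 genes that rose, 4 were 8 kb or longer, among them Scn2a, Cacna1d and Kcnt1, and the 3 that fell were 3575 to 5578 bases long. In the 33 tested members of 8 kb or more the median log2 fold change was 0.16, with 12.1% past the threshold as higher and 0 as lower. Below 8 kb the median was flat, at -0.10 in the 40 members of 4 to 8 kb, the 26 of 2 to 4 kb and the 5 under 2 kb.

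All genes showed a rise with length that was not confined to 8 kb or more. Over all tested genes the median was -0.13 under 2 kb (n = 2220), -0.06 from 2 to 4 kb (n = 4730), 0.0050 from 4 to 8 kb (n = 5676) and 0.08 at 8 kb or more (n = 2662). At 8 kb or more 10.8% of all genes passed as higher and 1.92% as lower, and under 2 kb the shares were 2.48% and 7.16%.

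The long members were lowest in 1 mouse of the AAV2-GFP group. AAV2-GFP replicate 3 had the lowest value of its group in 20 of the 33 members of 8 kb or more, and in 51.3% of all genes of that length. The long members lay at a median of -0.21 in that mouse and -0.10 in AAV2-GFP replicate 4, as log2 deviations from the mean of all 10 mice. They lay at 0.21 in AAV206-GFP replicate 4, and between -0.05 and 0.07 in the other 7 mice. RNA integrity values were not used here, and the part of RNA quality in these differences was not tested.

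After the fit was adjusted for length in each library, an alternative chosen after the data were seen, 7 members passed. Scn4a (log2 fold change 1.09, edgeR adjusted p = 1.6e-05), Scn2a (0.27, 0.00757), Cacna2d2, Kcnf1, Kcnab2 and Cacng4 were among them. Cacna1d (log2 fold change 0.22, edgeR adjusted p = 0.0586), Kcnt1 (0.26, 0.0906) and Cacnb3 (-0.18, 0.0579) were among those that no longer passed, and Kcnc2 did pass. The median of the calcium channel pore genes was 0.05 in this fit, against 0.16 without the adjustment.

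**Figure D4:**
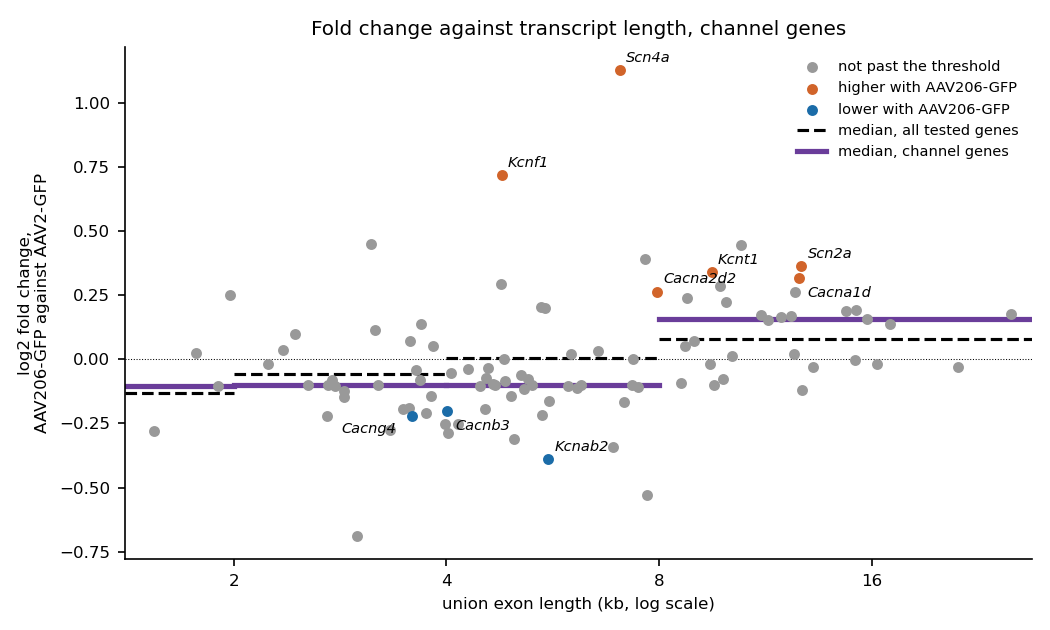
Log2 fold change (AAV206-GFP against AAV2-GFP) of 100 of the 104 tested channel genes against its union exon length in kb on a log axis, with medians per length range for all tested channel genes (solid) and all tested genes (dashed). Both medians are highest at 8 kb or more, at 0.16 and 0.08, and Scn4a and Kcnf1 lie above the other genes of their length.

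Summed over the 109 members, the level was 8882 ± 597 CPM (SD, n = 5) in the AAV2-GFP group and 9023 ± 92.6 CPM in the AAV206-GFP group. The spread was wider with AAV2-GFP, where AAV2-GFP replicate 3 was lowest at 8153 CPM. AAV2-GFP replicate 1 had the lowest value of its group in 41 of the 104 tested members (39.4%) and in 23.5% of all tested genes. The summed auxiliary potassium channel genes were 518 to 558 CPM with AAV206-GFP and 589 to 682 CPM with AAV2-GFP, a difference that Kcnab2 makes up for the most part.

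Genes outside the rule that anchor, modulate or work beside these channels were examined from a list of 43, of which 38 were tested. There 4 passed, 1 higher and 3 lower, against the background of 11.2% of all tested genes, with a median log2 fold change of -0.05. The 3 lower are named because they passed. Dlg4 (PSD-95), a scaffold that binds Kv1 channels, fell from 866 ± 82.2 to 653 ± 68.9 CPM (SD, n = 5; log2 difference -0.41, edgeR adjusted p = 0.00445), with no overlap between the groups. Fgf11, a sodium channel partner, fell from 75.9 ± 7.29 to 57.1 ± 4.64 CPM (SD, n = 5; log2 difference -0.41, edgeR adjusted p = 0.00332), also with no overlap. Calm3, a calmodulin gene, had a log2 fold change of -0.27 (edgeR adjusted p = 0.0412), and its adjusted p was 0.0680 to 0.0999 without any 1 of AAV2-GFP replicates 3, 4 and 5 or AAV206-GFP replicates 1, 2 and 4. The axonal anchor Ank3 had 0.08 (edgeR adjusted p = 0.593) and did not pass.

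Library totals were 10989843 to 12752604 counts. The tissue label was checked with markers, and rod genes took the largest share. Summed over 8 genes they were 50062 to 53708 CPM in the AAV2-GFP group and 53697 to 59239 CPM in the AAV206-GFP group, which overlap narrowly. Cone markers did not overlap, at 810 to 912 CPM and 920 to 976 CPM in that order, and neither did endothelial markers, at 189 to 208 CPM and 151 to 178 CPM. Summed markers of bipolar cells (840 to 1306 CPM), amacrine cells (721 to 830) and ganglion cells (866 to 1080) overlapped between the groups. Summed interferon genes were 79.1 to 566 CPM with AAV2-GFP and 83.9 to 104 with AAV206-GFP, the 6 lens genes 11.3 to 32.4 and 0.819 to 11.4, and the 5 erythrocyte genes 67.7 to 85.6 and 100.3 to 318. Every lens and erythrocyte gene on these lists had counts in at least 1 library. In bulk tissue, fewer cells of a type and less RNA per cell cannot be told apart, and the part of these cell types in the channel results was not tested.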

How the data were processed

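Gene-level estimated counts deposited by the authors for 10 retinas (5 per group) were used. Per the submitters' processing notes the tools were STAR 2.7.10b and RSEM 1.3.1 with mm10. Their roles, the annotation and the use of strand in counting are not given in the sources used here. Values with decimals (5.95%) were rounded. Symbols and exon lengths came from GENCODE M21.

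Genes passing filterByExpr (minimum count 10) were scaled by TMM and tested in edgeR 4.0.16 (R 4.3.3) by the quasi-likelihood test, with Benjamini-Hochberg adjustment over all 15539 genes and a threshold of 0.05. The standard error is the absolute log2 fold change over the square root of F. Positive values are higher with AAV206-GFP. Alternatives used limma 3.58.1, DESeq2 1.42.0, other scalings and filters, libraries left out and a length adjustment. The procedure was tested on simulated data.

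The members and lists were chosen with earlier results of these data known. Named were all members past the threshold, the highest per length in each class, and retinal textbook genes. Some of these genes are not reported here, though counts and class medians include them. Other members of a class are named to describe it, after their values were seen. No 2 libraries of the same group agreed within sampling noise. Each library is labelled as a separate mouse.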

Additional observations from a re-analysis of the deposited data

Results flagged for a closer look

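Of 66 sets of 5 mice examined for a single mouse far from the rest, 4 held one, where chance alone would give 3.30. The measure was the gap to the nearest mouse over the whole range of the group, set against Dixon's critical value. In AAV2-GFP replicate 3, Scn4a lay at 14.97 CPM while the rest of its group lay between 22.9 and 24.6 CPM (ratio 0.821), and the summed HCN channel genes were 363 CPM against 422 to 442 CPM (ratio 0.743). In AAV2-GFP replicate 1, Kcnj14 was 738 CPM against 819 to 844 CPM (ratio 0.762), and the summed inward rectifier genes, of which Kcnj14 is the most abundant, were 895 CPM against 1002 to 1024 CPM (ratio 0.832).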

How the results depend on the processing

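The count of 10 channel genes past the threshold was 4 to 9 when a library was left out and 2 without AAV2-GFP replicates 1 and 4. The share over all tested genes moved too, from 11.2% to between 6.31% and 12.2% when a library was left out, to 6.18% without those replicates and to 6.98% with the block described next. The 7 higher became 2 to 7, and 1 without those replicates, and 4 with the length adjustment. The 3 lower became 1 to 3, and 1 without those replicates. Same-numbered mice did not deviate together over all tested genes (correlations -0.04 to 0.03), which cannot exclude a weak shared effect. The labels do not say whether the numbers pair mice. A fit with the replicate number as a block gave 4 genes, 3 higher and 1 lower. The other 8 settings gave 8 to 10. Leaving out a library moved the median of the auxiliary calcium channel genes between -0.041 and 0.079. Kcnk1 changed sign under limma-voom with sample weights (0.019), without AAV2-GFP replicates 1 and 4 (0.014) and with the length adjustment (0.073), and ranged from -0.063 to 0.059 over libraries left out. The cause was not tested. Depth limits the 5 untested members.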
